A study of Mus musculus with 6 samples.

Results

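Non-repeat intergenic peaks more than 100 kb from any gene start were examined in ATAC-seq of mouse liver, an assay in which a transposase cuts and tags accessible DNA. A peak was included where the deposited HOMER annotation called it intergenic, placed it over 100000 bp from the nearest gene start, and named neither a CpG island nor a repeat. These were 4215 of the 74076 peaks, 5.69%, and they came from 10595 intergenic peaks beyond that distance, of which 6380 were left out as repeat or CpG island. The libraries were 3 from refed and 3 from fasted male C57BL/6J mice aged 8 weeks. Refed mice went without food for 12 h, beginning at 10 am, before 12 h on a high sucrose diet (69% sucrose, 10% fat) that began at 10 pm. Fasted mice had no food for 12 h from 10 pm, and every mouse was killed at 10 am. Feeding, the diet and the hours of the fast cannot be told apart between these groups. Whether each library is a different animal is not stated, so p-values measure the spread between libraries, which may be technical.

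Open chromatin far from genes often marks enhancers, short stretches of DNA where transcription factors bind and raise the activity of a promoter that can lie far along the chromosome. Such elements are common in gene deserts, long stretches with few genes that often flank developmental regulators. In liver, enhancers bound by lineage factors and by hormone-responsive factors carry much of the response to fasting and feeding. The assigned gene of a peak is only the gene with the nearest start on the chromosome, and the target of these peaks was not measured. In whole tissue, fewer open cells and less opening per cell cannot be told apart.

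The 4215 peaks were assigned to 1488 genes. Of these genes 652 had a single such peak and 216 had at least 5. The distance from the assigned start had a median of 199024 bp, with quartiles of 136943 and 348502 bp and a maximum of 2032557 bp. There were 2127 peaks at 100 to 200 kb, 1539 at 200 to 500 kb and 549 beyond 500 kb, of which 95 lay beyond 1 Mb. Upstream peaks numbered 2199 and downstream peaks 2016. The assigned gene was protein-coding for 75.7% of the peaks and a non-coding RNA for 21.4%. Peaks were narrow, with a median width of 402 bp, against 419 bp for non-repeat intergenic peaks at 10 to 100 kb and 811 bp for promoter peaks. Just inside the threshold lay a peak 100084 bp from the start of Cep57l1, with 13.2 ± 3.10 RPKM in refed and 13.3 ± 0.729 RPKM in fasted liver (mean ± SD, n = 3 each, here and below). RPKM scales reads to the length of the peak and to the library's reads in all listed peaks. Just outside lay a peak 99980 bp from Mir680-3, with 29.2 ± 3.08 RPKM in refed and 32.8 ± 7.17 RPKM in fasted liver.

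The peaks were unevenly spread over chromosomes. Chromosome 3 held 8.47% of them, against 6.17% of all peaks, and chromosome 13 held 6.88%, against 4.53%. Gene-dense chromosomes 11 and 19 held 2.33% and 0.641%, against 5.32% and 2.30% of all peaks. Chromosome X held 331, or 7.85%, against 3.63%. Much of that share came from 219 peaks within 2.74 Mb, from 120112507 to 122848414 (mm9), assigned to Vmn2r121, 4932411N23Rik, Cldn34c1 and Vmn2r-ps159. Vmn2r genes encode pheromone receptors of the vomeronasal organ. Of these 219 peaks, 165 held no read in any of the 6 libraries, and 88 of the 89 assigned to Vmn2r121 were empty. In all, 224 of the 4215 peaks were empty in every library, 169 of them on chromosome X. The deposited values count unique reads only, and none of the 219 peaks was called between groups by limma.

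Reads within all listed peaks numbered 4176671, 3238712 and 4679316 in refed replicates 5, 7 and 8, and 4850613, 3205634 and 4088425 in fasted replicates 1, 3 and 4. The peaks beyond 100 kb held medians of 26, 17 and 28 reads in these refed libraries and 28, 15 and 21 in these fasted libraries, so a typical value comes from 28 reads or fewer. Pearson's r of their log2 RPKM was 0.909 to 0.947 within the refed group, 0.891 to 0.935 within the fasted group and 0.843 to 0.912 for libraries of different groups, computed over peaks that are not independent. Hepatocyte markers were all represented: peaks assigned to 10 of 10 summed to 2439 to 2551 RPKM in refed and 2516 to 2789 RPKM in fasted libraries. Of 119 hepatocyte marker peaks, 1 was called higher and 7 lower in refed liver (limma), against 0.802% and 0.427% of all peaks. Endothelial markers had peaks at 10 of 10 genes and sums of 928 to 996 RPKM in refed and 910 to 932 RPKM in fasted libraries, with 2 of 65 peaks called higher and 0 lower. Lymphocyte markers had peaks at 4 of 12 genes and sums of 144 to 158 RPKM in refed and 170 to 188 RPKM in fasted libraries, which do not overlap, with 0 called; their part in the results was not tested. Those without an assigned peak included Cd3e, Cd3g, Cd8a, Cd79a, Cd79b, Ms4a1 and Nkg7. Macrophage, stellate cell, cholangiocyte and neutrophil markers had peaks at 5 of 10, 8 of 10, 5 of 7 and 5 of 6 genes, with overlapping sums and 0 called (limma). The counts of 0 are among 7, 20, 26 and 6 peaks, and 10 for lymphocyte markers, against 1.23% of all peaks called.

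Typical accessibility of the distant peaks was near that of non-repeat intergenic peaks at 10 to 100 kb. It was below that of such peaks within 10 kb in every library. Their median level was 16.8, 14.1 and 16.3 RPKM in refed replicates 5, 7 and 8, and 15.8, 12.4 and 14 RPKM in fasted replicates 1, 3 and 4. Non-repeat intergenic peaks at 10 to 100 kb had medians of 16.1, 15.3 and 16.8 RPKM in these refed libraries and 16.8, 15 and 15.4 RPKM in these fasted libraries. The distant peaks had the lower median in 5 of 6 libraries, with a mean difference of -0.10 ± 0.11 on the log2 scale (SD, n = 6; exact sign-flip permutation test, two-sided, p = 0.0938; 0.031 is the smallest p that 6 libraries allow). On autosomes alone the difference was -0.05 on the log2 scale (exact p = 0.438). Against non-repeat intergenic peaks within 10 kb it was -0.28 (exact p = 0.031).

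Relative to peaks nearer to genes, the distant peaks stood higher in refed than in fasted liver on average, but the libraries of the groups overlapped. The median log2 level of the distant peaks minus that of peaks at 10 to 100 kb was 0.06, -0.12 and -0.04 in refed replicates 5, 7 and 8, and -0.10, -0.28 and -0.14 in fasted replicates 1, 3 and 4. Fasted replicate 1 thus lay above refed replicate 7. The groups differed by 0.14 (refed minus fasted; exact permutation test, two-sided, p = 0.2; the smallest p that 3 against 3 allows is 0.1), and by 0.09 without fasted replicate 3 or refed replicate 5. The share of in-peak reads that fell in the distant peaks was 3.88%, 3.20% and 3.58% in refed replicates 5, 7 and 8, and 3.67%, 2.89% and 3.28% in fasted replicates 1, 3 and 4 (exact p = 0.5). The difference of 0.271 percentage points was 0.0763 without fasted replicate 3, 0.107 without refed replicate 5, 0.468 without fasted replicate 1 and 0.447 without refed replicate 7. In each group the library with the fewest reads had the lowest share. The share in promoter peaks moved the other way, with 33.6%, 35.0% and 33.3% in refed and 32.7%, 35.8% and 35.1% in fasted libraries in the same order, and its part in the difference was not tested.

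The median change was larger in bins at longer distances, and no test of that trend was made. Among peaks with a read, the median log2 change (refed minus fasted) was -0.03 within 10 kb, 0.01 at 10 to 100 kb, 0.09 at 100 to 200 kb, 0.19 at 200 to 500 kb and 0.23 beyond 500 kb. The share of peaks with a change above 0 was 47.1%, 50.7%, 57.3%, 65.6% and 68.9% in the same bins. Beyond 500 kb, the median level relative to peaks within 10 kb was 0.05, -0.41 and -0.18 on the log2 scale in refed replicates 5, 7 and 8, and -0.35, -0.68 and -0.34 in fasted replicates 1, 3 and 4. Refed replicate 7 lay below fasted replicates 1 and 4. The difference of 0.27 had an exact permutation p of 0.3 (two-sided; 0.5 after Benjamini-Hochberg adjustment over 4 distance bins). Medians over peaks thus shifted with distance, while no bin parted the groups' libraries.

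**Figure D1:**
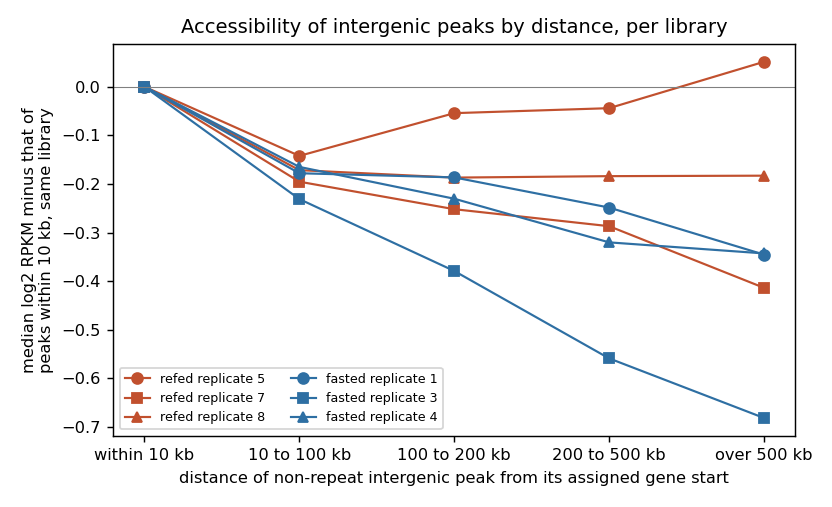
Median log2 RPKM of non-repeat intergenic peaks in 5 bins of distance (x axis), minus the same library's median for peaks within 10 kb (y axis, log2), with 1 line per library. Beyond 500 kb the lines run from 0.05 in refed replicate 5 to -0.68 in fasted replicate 3, and refed replicate 7 (-0.41) lies below fasted replicates 1 and 4.

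Peak by peak, 47 of the 4215 distant peaks were more open and 12 were less open in refed than in fasted liver (limma, Benjamini-Hochberg adjusted over all 74076 peaks, p under 0.05). These are 1.12% and 0.285% of the distant peaks, against 0.802% and 0.427% of all peaks, and 1.40% against 1.23% in either direction. The called share was therefore close to that of all peaks, with 79.7% of calls higher against 65.3% for all called peaks. Peaks at 10 to 100 kb had 1.03% higher and 0.540% lower, and peaks within 10 kb had 1.75% and 1.06%. No test of these differences between classes was made. An unadjusted p under 0.05 was reached by 627 higher and 196 lower peaks, together 19.5% against 14.5% of all peaks. On reads recovered from the RPKM steps, edgeR called 178 higher and 47 lower of 3613 distant peaks tested (4.93% and 1.30%, against 2.58% and 1.43% of all peaks tested). DESeq2 called 44 and 19 of 3171 (1.39% and 0.599%, against 1.04% and 0.616%). Of the 47 higher and 12 lower limma calls, edgeR also called 46 and 12, and DESeq2 29 and 11. The authors' deposited edgeR table lists 238 higher and 67 lower of them (5.65% and 1.59%, against 2.81% and 1.66% of all peaks), and it holds all 59 limma calls in the same direction.

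The limma calls depended on single libraries. Of the 59, the call remained for 50, 39 and 12 without fasted replicate 1, 3 or 4, and for 18, 14 and 3 without refed replicate 5, 7 or 8. Higher and lower calls then numbered 105 and 8, 39 and 10, 11 and 1, 10 and 13, 9 and 5, and 2 and 1 in the same order. Without refed replicate 5 the share of calls that were higher was 43.5%, against 79.7% with all libraries. With quantile normalization 1 was higher and 1 lower, with 536 and 247 at an unadjusted p under 0.05. The shares of all peaks called in these alternative fits were not set beside these counts. Whether the shifts in count are particular to the distant peaks was therefore not tested. None of the 59 changed sign in any of the 14 alternative fits that tested it. At each of the 59 the groups did not overlap, so leaving out 1 library could not change the sign.

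**Figure D2:**
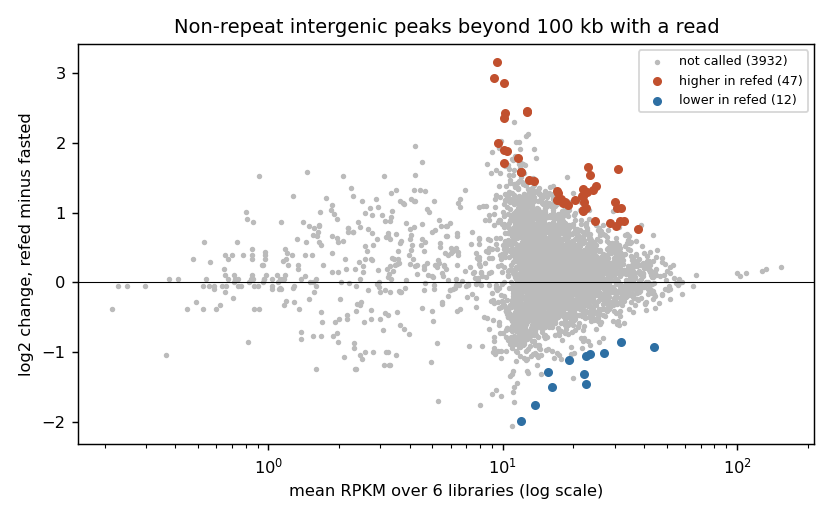
Log2 change (refed minus fasted, y axis) against the mean RPKM over 6 libraries (x axis, log scale) for the 3991 distant peaks with a read in any library; each point is a peak, coloured where limma called it. The 47 higher peaks lie between 0.76 and 3.16 and the 12 lower peaks between -1.99 and -0.85.

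The levels of the called peaks follow in part from how they were chosen and are given as a description. The group means of the 47 higher peaks had medians of 25.8 RPKM in refed and 11.4 RPKM in fasted liver, and the median log2 change was 1.29. Of the 47, 41 changed by at least 2-fold, and 13 held at most 10 reads in each fasted library. The 12 lower peaks had medians of 12.5 RPKM in refed and 31.0 RPKM in fasted liver and a median log2 change of -1.20. At each of the 59 the refed and fasted values did not overlap, a property of 22.0% of the distant peaks and 19% of all peaks. Chromosome 13, with 6.88% of the distant peaks, held 10 of the 47 higher ones, or 21.3%, against 6.57% of all peaks called higher; this was noticed after the values were seen and not tested. Assigned genes were not protein-coding for 10 of the 47 higher and 7 of the 12 lower peaks.

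Among the larger gains were peaks near a ubiquitin-conjugating enzyme gene, an axon guidance ligand gene and a transcriptional repressor gene. A peak 281268 bp upstream of Ube2e3, which encodes a ubiquitin-conjugating enzyme, spans 78427765 to 78428107 on chromosome 2 (mm9, as are all coordinates here). It held 18.1, 17.1 and 14.3 RPKM in refed replicates 5, 7 and 8, against 4.81, 1.82 and 0.713 RPKM in fasted replicates 1, 3 and 4. These rest on 26, 19 and 23 reads in refed and 8, 2 and 1 reads in fasted libraries. The groups were far apart, and the log2 change was 3.16 ± 0.61 (SE, limma adjusted p = 0.0269). In the authors' edgeR table the log2 change of this peak was 2.59.

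A peak 129753 bp upstream of Efna5, which encodes the guidance ligand ephrin-A5, spans 63360190 to 63360649 on chromosome 17. Its level was 19.8, 10.7 and 18.1 RPKM in refed and 2.69, 2.03 and 1.60 RPKM in fasted libraries, in the same order of replicates as above and as in the following sentences. The fasted libraries held only 6, 3 and 3 reads, and the log2 change was 2.93 ± 0.47 (adjusted p = 0.0124). Efna5 has a further pair of distant peaks, at 1228636 and 2032557 bp on the downstream side, the second being the farthest of the 4215. The nearer of that pair had 24.7, 19.7 and 23.4 RPKM in refed and 13.8, 8.53 and 8.18 RPKM in fasted libraries and missed the threshold (limma adjusted p = 0.0593; edgeR 0.0293). The farthest had 43.7, 34.6 and 37.8 RPKM in refed and 34.1, 21.4 and 27.0 RPKM in fasted libraries (log2 change 0.51 ± 0.17, adjusted p = 0.178). At all 3 the refed values lay above the fasted values, and groups did not overlap at 22.0% of all distant peaks.

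Downstream of Trps1, a gene for a GATA-type zinc finger repressor, a peak 416753 bp from the start (chromosome 15, 50303632 to 50304053) had 27.8, 20.5 and 15.7 RPKM in refed and 2.93, 2.96 and 6.38 RPKM in fasted libraries. It rose by 2.45 ± 0.42 on the log2 scale (adjusted p = 0.0178). The peak near Stmnd1, 120160 bp upstream of its start, had 27.6, 25.6 and 10.8 RPKM in refed and 1.90, 7.19 and 3.38 RPKM in fasted libraries (log2 change 2.46 ± 0.53, adjusted p = 0.0422). Refed replicate 8 was the lowest of the refed libraries there. Near Xylt1, whose enzyme starts the sugar chains of proteoglycans, a peak 198290 bp upstream had 19.5, 14.2 and 15.2 RPKM in refed and 4.39, 5.53 and 3.47 RPKM in fasted libraries (1.88 ± 0.38, adjusted p = 0.0333). Near Ipmk, which encodes an inositol phosphate kinase, a peak 293302 bp downstream had 15.7, 16 and 22.1 RPKM in refed and 7.11, 3.23 and 5.90 RPKM in fasted libraries (1.78 ± 0.39, adjusted p = 0.0466). Peaks near Thumpd2 and Basp1 rose by 2.0 and 1.90.

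The gain with the smallest p among these peaks lay 304560 bp past the start of Cetn3, which encodes a calcium-binding protein of the centrosome (chromosome 13, 82226600 to 82227103). It had 50.8, 44.1 and 45.4 RPKM in refed and 17.6, 12.4 and 16 RPKM in fasted libraries, from 107, 72 and 107 reads and 43, 20 and 33 reads. The spread within each group was small beside the gap, and the log2 change was 1.62 ± 0.17 (limma adjusted p = 0.00135). On the same chromosome, a peak 304934 bp past the start of Inhba, the gene for a subunit of activin A, had 51.9, 31.5 and 22.2 RPKM in refed and 7.39, 12.3 and 12.7 RPKM in fasted libraries (1.66 ± 0.31, adjusted p = 0.0246). Inhba had 22 distant peaks over 549 kb, more than any other gene outside the 4 on chromosome X. None of the others passed, and the 22 had a median log2 change of -0.13, with 8 above 0.

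Of these 10 gains, that near Cetn3 was called whichever library was left out, with an adjusted p of at most 0.0145, but like every other call it was lost without an intensity trend in limma (0.0691). The peaks near Efna5 and Inhba lost the call in 1 and 2 of the 6 fits (adjusted p up to 0.0734 when refed replicate 8 was left out, and 0.0880 when refed replicate 5 was left out). That near Trps1 lost it in 3 (up to 0.0707 without refed replicate 5), and those near Ube2e3, Thumpd2 and Xylt1 in 4 (up to 0.0902 and 0.144 when refed replicate 8 was left out, and 0.133 for refed replicate 5). Those near Stmnd1, Basp1 and Ipmk lost it in 5 (up to 0.133 when refed replicate 7 was left out, and 0.184 and 0.214 for refed replicate 8). DESeq2 gave no adjusted p for the peaks near Ube2e3, Stmnd1, Thumpd2 and Xylt1, nor did edgeR for that near Stmnd1.

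**Figure D3:**
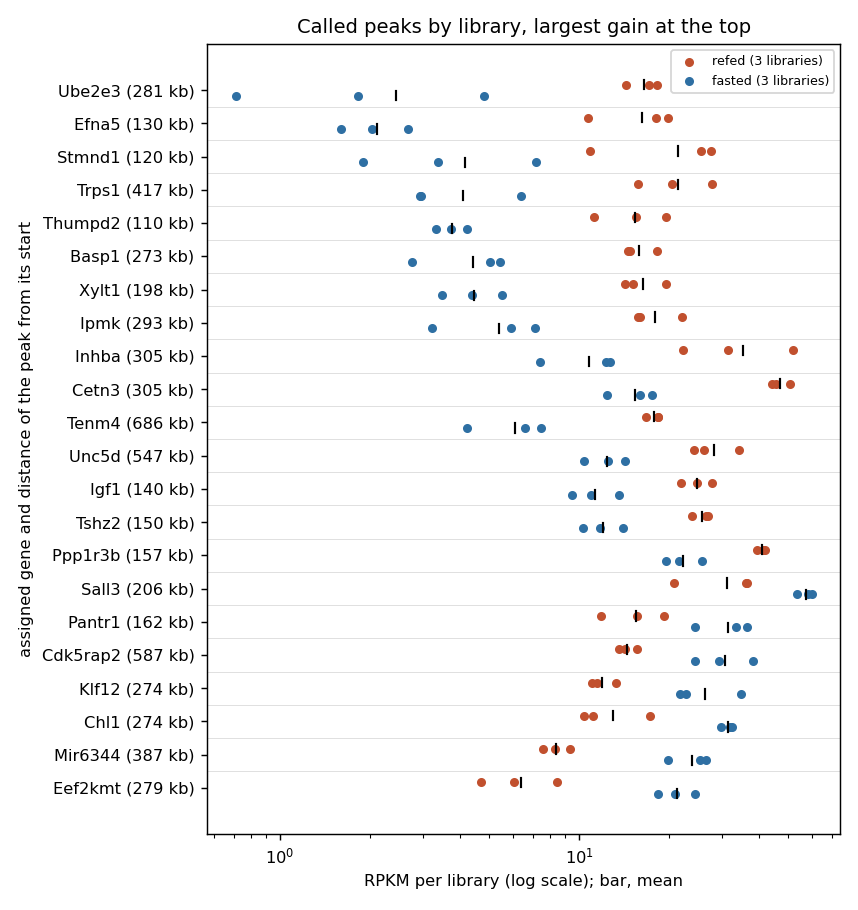
RPKM (x axis, log scale) of the 22 named peaks called by limma, 1 row per peak labelled with its assigned gene and distance; points are libraries, with refed above fasted in each row, and bars are group means. In each row the 3 refed values lie on one side of the 3 fasted values, and the fasted points near Ube2e3 and Efna5 lie at 4.81 RPKM or below.

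Losses were smaller than the largest gains. The largest, -1.99 near 4930571O06Rik, is not described because predicted genes were skipped. A peak 278626 bp upstream of Eef2kmt, the gene for a methyltransferase of an elongation factor, spans 5534549 to 5534802 on chromosome 16. It had 4.71, 6.08 and 8.41 RPKM in refed and 24.4, 20.9 and 18.3 RPKM in fasted libraries, and fell by 1.76 ± 0.33 on the log2 scale (limma adjusted p = 0.0250). Near Mir6344, a microRNA gene, a peak 386755 bp upstream (chromosome 1, 81741289 to 81742183) had 8.29, 7.59 and 9.31 RPKM in refed and 25.3, 19.9 and 26.5 RPKM in fasted libraries (-1.50 ± 0.27, adjusted p = 0.0196). Near Chl1, which encodes a neural cell adhesion molecule, a peak 273799 bp upstream had 17.3, 10.4 and 11.1 RPKM in refed and 31.9, 29.9 and 32.5 RPKM in fasted libraries (-1.32 ± 0.23, adjusted p = 0.0175). In all 3 the refed libraries were well below the fasted libraries.

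Klf12, a Kruppel-like repressor gene, had a peak 274147 bp upstream with 11.0, 11.5 and 13.3 RPKM in refed and 34.7, 22.7 and 21.7 RPKM in fasted libraries (-1.11 ± 0.25, adjusted p = 0.0461). A stronger Klf12 peak, 135620 bp upstream and 1995 bp wide, had 53.8, 59.9 and 50.8 RPKM in refed and 63.8, 60.8 and 59.8 RPKM in fasted libraries (-0.17 ± 0.09, adjusted p = 0.443). Only the weaker of these passed the test. Near Sall3, a spalt-like zinc finger gene, a peak 205771 bp upstream had 36.5, 20.8 and 36.1 RPKM in refed and 59.9, 53.4 and 58.3 RPKM in fasted libraries (-0.92 ± 0.18, adjusted p = 0.0294). Peaks near the centrosomal gene Cdk5rap2 and the non-coding RNA gene Pantr1 fell by 1.06 and 1.03. Without fasted replicate 4 all 7 of these losses missed the threshold, with adjusted p from 0.0859 near Chl1 to 0.175 near Pantr1. The Klf12 peak missed it whichever of the 6 libraries was left out, and those near Eef2kmt and Cdk5rap2 in 5.

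For genes of insulin, growth factor and nutrient signalling, 2 of 27 distant peaks were called. This share exceeded that of all distant peaks but rests on 2 peaks. Distant peaks were assigned to 7 of the 36 listed genes, and 2 of 27 peaks were higher and 0 were lower, against 1.12% and 0.285% of all distant peaks (limma; 4 and 4 at an unadjusted p under 0.05, 2 and 1 by edgeR, and 2 calls by DESeq2). Their median log2 change was -0.07, against 0.10 for all distant peaks and 0.00 for all peaks, and it was 0.13 without fasted replicate 1 and 0.09 without refed replicate 8. Ppp1r3b encodes a subunit that brings a phosphatase to glycogen and favours glycogen synthesis in liver. Its peak 157327 bp upstream (chromosome 8, 36281004 to 36281933) had 39.4, 41.2 and 41.8 RPKM in refed and 19.5, 25.8 and 21.6 RPKM in fasted libraries (0.88 ± 0.15, adjusted p = 0.0172). The changes of the 5 distant peaks of Ppp1r3b ran from 0.16 to 0.88, all above 0, with 1 called. Igf1 encodes the growth factor that liver releases under growth hormone. Its peak 139559 bp upstream (chromosome 10, 87181141 to 87181762) had 27.7, 21.8 and 24.7 RPKM in refed and 10.9, 13.5 and 9.44 RPKM in fasted libraries (1.14 ± 0.24, adjusted p = 0.0401). The next Igf1 peak, 146591 bp upstream, had 26.0, 21.9 and 22.9 RPKM in refed and 24.4, 21.7 and 20.1 RPKM in fasted libraries and did not pass (adjusted p = 0.894). The calls were lost in 3 fits with 1 library left out for Ppp1r3b and in 4 for Igf1, with adjusted p up to 0.0892 and 0.164 without refed replicate 8.

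In the same list, and chosen after their values were seen, Trib2 and Insr had negative median changes. Trib2, a pseudokinase gene, had 5 distant peaks with changes from -0.99 to -0.12 and none called by limma (smallest adjusted p = 0.126). Insr, the insulin receptor gene, had 3 distant peaks, all at 8.71 RPKM or below in every library, with changes of -1.71 and -1.25 at 229259 and 231809 bp from its start that did not pass (limma, smallest adjusted p = 0.120). The third, at 254111 bp, held 0 reads in all 6 libraries, so no change was measured there.

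No distant peak of the listed fasting-response and fed-state lipid and sugar genes was called by limma. Of 29 genes of the fasting response, 4 had distant peaks, and 0 of 20 peaks were called by limma (2 up and 1 down reached an unadjusted p below 0.05; 1 lower by edgeR and 1 call by DESeq2). With 1.40% of all distant peaks called by limma, a count of 0 in 20 is near that share. Ppargc1a, whose coactivator drives gluconeogenesis and mitochondrial genes in fasting, had 8 of the 20, with 2 changes above 0 and 6 below. Its peak 513957 bp downstream had 17.8, 15.1 and 21.6 RPKM in refed and 42.5, 28.2 and 29.0 RPKM in fasted libraries. These did not overlap, as at 22.0% of all distant peaks. The log2 change of -0.86 ± 0.21 missed the threshold (limma adjusted p = 0.0620). It was past the threshold with edgeR (0.0113), DESeq2 (0.0273) and limma after median centring (0.0201). Without an intensity trend in limma no distant peak was called, this one included, and fits with 1 library left out are not given for it. The Ppargc1a peak 107766 bp downstream had the largest opposite change (0.80 ± 0.33, limma adjusted p = 0.271). It had 22.9, 21.8 and 16.8 RPKM in refed and 20.0, 8.18 and 9.76 RPKM in fasted libraries, which overlap. Lpin1, a phosphatidate phosphatase gene, held the only distant peak of 35 fed-state genes, with 15.2, 11.0 and 20.1 RPKM in refed and 5.77, 11.1 and 7.47 RPKM in fasted libraries (adjusted p = 0.253; 0 called by edgeR or DESeq2, and 1 higher at an unadjusted p under 0.05). None of 19 circadian clock genes had a distant peak.

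Hepatocyte lineage transcription factors had distant peaks at 7 of 27 genes. Of 46 peaks limma called 0 (6 up and 5 down reached an unadjusted p below 0.05; 1 and 2 by edgeR; 0 by DESeq2). Nr2f2, which encodes the nuclear receptor COUP-TFII, held 18 of them between 115322 and 762386 bp upstream of its start. The peak with the smallest p, 117016 bp upstream, had 10.8, 9.10 and 11.8 RPKM in refed and 23.1, 17.2 and 21.6 RPKM in fasted libraries (log2 change -0.96 ± 0.26, limma adjusted p = 0.0954; edgeR 0.0230). Of the 18, 12 had a change below 0 and 6 above 0. Developmental regulators that lie beside gene deserts had distant peaks at 20 of 50 genes, with 1 of 66 peaks higher and 0 lower by limma (14 and 6 at an unadjusted p under 0.05; 4 and 2 by edgeR; 1 call by DESeq2). The one called lay 149544 bp upstream of Tshz2, a teashirt zinc finger gene, with 27.0, 23.9 and 26.6 RPKM in refed and 14, 11.7 and 10.3 RPKM in fasted libraries (1.11 ± 0.22, adjusted p = 0.0315; lost in 4 of 6 fits with 1 library left out, up to 0.156 without refed replicate 8). Maf, a bZIP factor gene, held 17 of the 66 peaks and none was called (limma; 4 at an unadjusted p under 0.05 and 1 by edgeR). Over all distant peaks limma called 1.40%, so 0 of 46, 1 of 66 and 0 of 17 are near that share. At an unadjusted p under 0.05, 14.9% of all distant peaks were higher and 4.65% lower.

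Adhesion and guidance genes, many of which flank gene deserts, had distant peaks at 31 of 52 genes. Of 92 peaks limma called 3 higher and 0 lower, against 1.12% and 0.285% of all distant peaks, with 24 and 1 at an unadjusted p under 0.05, against 14.9% and 4.65% (9 and 0 by edgeR; 4 calls by DESeq2). Their median log2 change was 0.37, against 0.10 for all distant peaks. Without fasted replicate 3 these medians were 0.21 and 0.09, and without refed replicate 5 they were 0.36 and 0.05. They were 0.44 and 0.18 without fasted replicate 1, and 0.49 and 0.17 without refed replicate 7. The 0.10 includes 224 peaks that were empty in every library, and the list was not matched to all distant peaks for distance. The median of distant peaks with a read ran from 0.09 at 100 to 200 kb to 0.23 beyond 500 kb. The part of distance in the difference was not tested. The 3 higher peaks were the Efna5 peak above, a peak near Unc5d and a peak near Tenm4. Unc5d encodes a netrin receptor, and its peak 546866 bp upstream had 34.1, 26.1 and 24.3 RPKM in refed and 14.2, 10.4 and 12.5 RPKM in fasted libraries (1.18 ± 0.23, adjusted p = 0.0263). Tenm4 encodes a teneurin, a transmembrane protein of cell contacts, and its peak 686196 bp upstream had 18.3, 16.7 and 18.3 RPKM in refed and 7.43, 4.22 and 6.61 RPKM in fasted libraries (1.59 ± 0.35, adjusted p = 0.0461). These calls were lost in 4 and 5 of the 6 fits with 1 library left out, up to 0.121 without refed replicate 5 for Unc5d and 0.182 without refed replicate 8 for Tenm4. Cdh11, a cadherin gene noted after its values were seen, had 8 distant peaks with changes from -0.07 to 1.51 and a median of 0.97, none called (smallest adjusted p = 0.0955). The farthest peaks after that of Efna5 lay 1871669 bp downstream of Pcdh9, a protocadherin gene, with 14.4 ± 0.593 RPKM in refed and 13.9 ± 2.67 RPKM in fasted liver, and 1817349 bp upstream of Nudt12. The Nudt12 peak had 26.3, 14.1 and 18.6 RPKM in refed and 10.7, 4.53 and 9.64 RPKM in fasted libraries and did not pass (limma adjusted p = 0.123; edgeR 0.0237).

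The strongest distant peaks did not pass the test between groups with all 6 libraries. The 5 with the highest mean were all assigned to Gm3376 and lay on chromosome Y between 2779632 and 2884998. Their group means ran from 106 to 165 RPKM in refed and from 99.5 to 143 RPKM in fasted liver, and their log2 changes from 0.09 to 0.22 (limma adjusted p from 0.306 to 0.627). The first of them had 157, 177 and 160 RPKM in refed and 118, 174 and 137 RPKM in fasted libraries, which overlap; without fasted replicate 3 its change was 0.37 and it was called (limma adjusted p = 0.0285). On autosomes the strongest lay 146145 bp past the start of Arhgap12, with 64.3, 62.0 and 64.3 RPKM in refed and 63.0, 72.0 and 63.7 RPKM in fasted libraries (adjusted p = 0.853). This peak was taken after the values were seen.

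Few promoters could be set beside the called distant peaks. The 59 called peaks were assigned to 57 genes, of which 27 had a promoter peak, the strongest being used. None of these promoter peaks was called by limma (smallest adjusted p = 0.224, at Ppp1r3b); with 1.23% of all peaks called, a count of 0 in 27 is near the background. Their changes ran from -0.49 to 0.74. The sign was that of the distant peak at 15 of 27. At Ube2e3 the promoter had 74.8 ± 4.96 RPKM in refed and 75.4 ± 3.59 RPKM in fasted liver. At Efna5 it had 20.7 ± 2.26 and 21.4 ± 5.13 RPKM, at Eef2kmt 82.2 ± 9.23 and 81.8 ± 9.99 RPKM, and at Igf1 21.8 ± 5.69 and 26.9 ± 5.68 RPKM, each in refed and then in fasted liver. At Ppp1r3b the promoter had 63.9 ± 7.59 RPKM in refed and 52.1 ± 5.07 RPKM in fasted liver. Called and uncalled distant peaks lay at like distances from other calls. The median distance to the nearest other called peak of any class was 1214696 bp for the called and 1545219 bp for the uncalled, and 62.7% and 61.6% of them lay over 1 Mb from one. Another called peak lay within 100 kb of 4 of 59, 6.78%, against 256 of 4156 distant peaks that were not called, 6.16%.

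The 4 with a near neighbour were pairs in 2 stretches of distant peaks, where a stretch is a run of peaks at most 50 kb apart. There were 2168 stretches, of which 1339 were single peaks and 139 held at least 5, and no stretch held more than 2 calls. The longer of these 2 runs over 264 kb of chromosome 13 between Ly86, which encodes a partner protein of a Toll-like receptor relative on immune cells, and the zinc finger gene Rreb1. Of its 26 peaks, the 2 called lay at the Ly86 end. One had 35.0, 43.0 and 32.5 RPKM in refed and 16.5, 22.4 and 22.4 RPKM in fasted libraries (0.85, limma adjusted p = 0.0375). The other had 28.4, 37.9 and 26.7 RPKM in refed and 13.3, 10.8 and 15.3 RPKM in fasted libraries (1.24, adjusted p = 0.0201). Between them lay 3 distant peaks with changes from -0.48 to 0.18 that did not pass, and 3222 bp from the second lay a called peak of another class, with a change of 1.47. The peak 1109 bp wide near Rreb1 had 47.1, 50.7 and 47.4 RPKM in refed and 47.4, 45.9 and 43.0 RPKM in fasted libraries (0.09, adjusted p = 0.765). Also assigned to Rreb1, a peak 227914 bp upstream had 38.3, 36.6 and 34.4 RPKM in refed and 22.1, 27.5 and 23.6 RPKM in fasted libraries (0.58, limma adjusted p = 0.0733; edgeR 0.0159). Another, 222311 bp upstream, had 22.9, 16 and 21.6 RPKM in refed and 8.55, 10.5 and 12.0 RPKM in fasted libraries (0.96, limma adjusted p = 0.114; edgeR 0.0459). At both the groups did not overlap, as at 22.0% of all distant peaks and at further uncalled peaks of this stretch.

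The shorter stretch runs over 98.5 kb of chromosome 13 and holds 10 peaks assigned to Gm15326 and Ankrd55. A peak 199915 bp upstream of Ankrd55 had 31.7, 32.4 and 40.7 RPKM in refed and 14, 13.6 and 9.07 RPKM in fasted libraries (1.53, limma adjusted p = 0.00841). The next, 187577 bp upstream, had 38.8, 44.6 and 40.5 RPKM in refed and 21.3, 14.8 and 20.4 RPKM in fasted libraries (1.15, adjusted p = 0.00934). The peaks on either side of this pair had changes of 1.58 and 1.54 that did not pass (adjusted p = 0.111 and 0.107), at 2.75 to 9.45 RPKM in fasted libraries. The other 6 peaks had changes from -0.32 to 0.15.

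**Figure D4:**
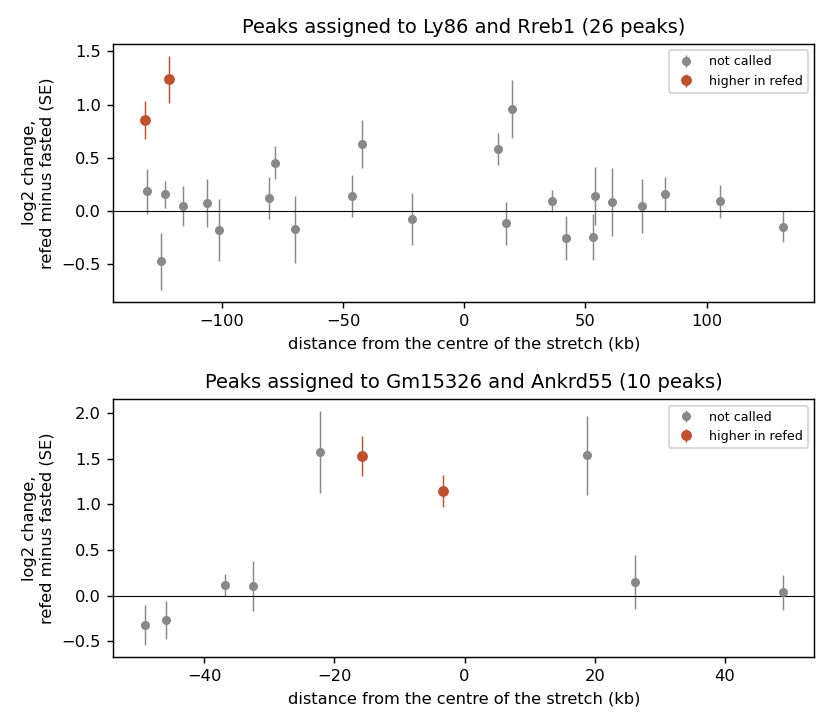
Log2 change (refed minus fasted, y axis) with limma's SE for each distant peak of the 2 stretches with 2 calls, against its distance in kb from the centre of the stretch (x axis). Near Ankrd55 4 neighbouring peaks lie between 1.15 and 1.58, 2 of them called, while the peaks at both ends lie between -0.32 and 0.15.

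The correlation of changes between neighbouring distant peaks was higher at shorter gaps. Among 3584 peaks with a mean of at least 10 reads, Pearson's r of the log2 change between consecutive peaks was 0.45 at gaps under 2 kb (361 pairs), 0.34 at 2 to 10 kb (469 pairs) and 0.28 at 10 to 50 kb (773 pairs). It was 0.19 at 50 to 200 kb (579 pairs), 0.14 at 200 kb to 1 Mb (710 pairs) and 0.00 beyond 1 Mb (671 pairs). The share of pairs with the same sign did not follow that order: it was 69.3%, 64.0%, 59.0%, 61.1%, 64.2% and 53.7% in these bins, from the shortest gap to the longest. All pairs rest on the same 6 libraries, and a peak can enter 2 pairs, so these are descriptions without a test.

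**Figure D5:**
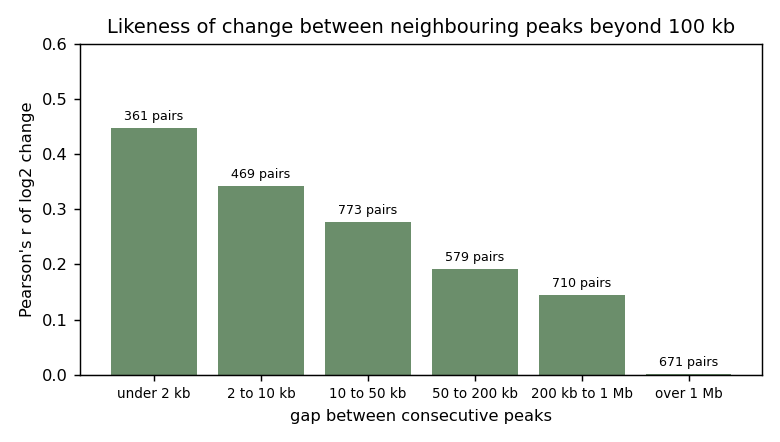
Pearson's r of the log2 change (refed minus fasted, y axis) between consecutive distant peaks with a mean of at least 10 reads, by the gap between them (x axis); the number above each bar counts pairs. The bars run from 0.45 under 2 kb to 0.00 beyond 1 Mb.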

How the data were processed

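The ATAC-seq libraries were grouped by the labels. HOMER, MACS2, Bowtie2 and SAMtools, besides cutadapt, FastQC and DESeq2, are named in the submitters' processing notes with build mm9. The sources used here give no versions, settings or transposase shift. The columns are labelled as unique reads without duplicates, over 1 merged list of peaks, per the file headers. The authors deposited RPKM per library, scaled to reads in the listed peaks, with an empty peak set to 0.9 reads. Whole reads were recovered from these steps (tolerance 0.01 reads) for 100% of values in each library, and equalled the deposited read counts at all 3314 peaks of the authors' edgeR table. For each peak that table adds a log2 fold change, a p-value and an FDR, deposited by the authors.

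Log2 RPKM of all 74076 peaks was fitted with limma 3.58.1 in R 4.3.3 (refed minus fasted, intensity trend, no filter or pseudocount), with Benjamini-Hochberg adjustment over all peaks and calls at 0.05. Alternatives on the recovered reads were DESeq2 1.42.0 and the quasi-likelihood test of edgeR 4.0.16 with TMM after filterByExpr. The fits were also run on simulated reads, with a single spread for all peaks and changes only at peaks with a mean of at least 10 reads. That does not test changes at peaks with fewer reads, or shifts of whole libraries between peak classes. Values per library were compared by exact permutation tests. Symbols that a spreadsheet had turned into dates were restored through Entrez IDs in a RefSeq table of another assembly, at 91 peaks, 1 of them among those reported. Peak sequences were not used here.

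Peaks, lists and alternatives were chosen with earlier results of these data known. Named peaks are the 10 largest called gains and losses outside predicted genes (7 losses qualified), the 5 strongest, the 3 farthest, up to 3 called peaks per list (otherwise the smallest p), the nearest to the threshold, the genes with the most peaks, and the stretches with the most calls.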

Additional observations from a re-analysis of the deposited data

How the results depend on the processing

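Counts of distant peaks higher and lower in refed liver, 47 and 12 by limma, were 178 and 47 with edgeR, 172 and 49 with edgeR without a filter, and 44 and 19 with DESeq2. They were 90 and 24 with median centring, 1 and 1 with quantile normalization, and 0 and 0 without an intensity trend (620 and 220 at an unadjusted p under 0.05). With 1 library left out, higher peaks ran from 2 to 105 and lower peaks from 1 to 13. A pseudocount of 1 gave 37 and 9, and a filter at the lowest quartile of mean RPKM 42 and 13. The cause of these differences was not tested, nor whether they are particular to the distant peaks. The distant peaks' level against that of other intergenic peaks within each library was -0.10 (log2; exact permutation p = 0.0938) as reported. It was -0.31 with means in place of medians and -0.28 against peaks within 10 kb, both with an exact permutation p of 0.031. With 1 library left out the reported difference ran from -0.13 to -0.07, where 5 libraries cannot reach 0.05. Empty peaks, set to 0.9 reads, were 224 of the 4215 distant peaks. They were 149 of 10176 at 10 to 100 kb and 52 of 3317 within 10 kb. Their part in these differences was not tested. The differences between groups in read share and relative level kept their sign under other distance thresholds, on autosomes and with 1 library left out, and none reached 0.05, which 3 against 3 cannot. None of the 22 named peaks called by limma reversed, which leaving out 1 library could not cause, as their groups did not overlap. This does not cover named peaks that were not called. No paired analysis was possible because the groups share no replicate number. Depth limits single peaks, and empty peaks set to 0.9 reads shrink fold changes.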
